A study of Mus musculus with 4 samples.

Results

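The genes described here make, sense, store and export cholesterol. They are a list of 31 gene symbols, of which 23 belong to cholesterol synthesis and its control by sterol regulatory element-binding proteins (SREBPs) and 8 to cholesterol movement, storage and efflux. The 8 are called efflux genes for short, including those that move cholesterol within the cell or store it. A probe was a member when its name in the deposited non-normalized table was one of the 31 symbols. Under that rule 30 genes had 51 probes, out of 29515 named genes in all, and Tm7sf2 had no probe by that name. Msmo1 is listed in the table as SC4MOL. The tissue was subcutaneous white adipose tissue of C57BL/6 mice aged 8 to 12 weeks. The FtMT-Adip mice express mitochondrial ferritin, an iron-storage protein of that organelle, from a transgene described as fat-specific, and their controls were wild-type (WT). Both groups had received a high-fat diet, Dox-HFD in the series' description, for 3 weeks, so no group was without that diet. Each group had 2 arrays. The labels do not name the transgene's promoter. They also do not say whether the RNA on an array was pooled from several mice, so p-values measure the spread between these arrays, which may be technical.

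Cells build cholesterol from acetyl-CoA through mevalonate, squalene and lanosterol. When sterols in the endoplasmic reticulum are scarce, the escort protein SCAP carries SREBPs to the Golgi, where they are cleaved into transcription factors that raise the genes of synthesis, while INSIG proteins hold SCAP back when sterols are plentiful. Cholesterol taken up with lipoproteins leaves lysosomes through NPC2 and NPC1, is esterified by SOAT1 for storage, or leaves the cell through the transporters ABCA1 and ABCG1 to acceptors such as APOE. Adipocytes hold a large pool of free cholesterol in and around their lipid droplets, and macrophages of adipose tissue take up lipid from them.

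The 4 arrays reported 45281 probes each, with a median signal of 116.5 to 119 on the linear scale. A probe was tested when its signal exceeded, on at least 2 of the 4 arrays, the 95th percentile of probes for olfactory and vomeronasal receptors (119.6 to 123.5), which are taken as not expressed in fat. This left 14635 genes, each represented by its brightest tested probe, where for a member only the probes that meet the name rule were considered. The probe for the endogenous mouse gene Ftmt read 104.9 and 106.8 in FtMT-Adip, against 102.1 and 110.6 in WT, above background on 0 arrays, and whether it matches the transgene is not known. Adipoq, which encodes adiponectin and marks adipocytes, was bright on every array (4405 and 6069 in FtMT-Adip, 13872 and 14168 in WT). Among the members 28 genes were tested, and the probe of each was above background on all 4 arrays, so that the filter did not depend on the group. Fdft1, the squalene synthase gene, was just outside the filter (118.9 and 121.8 in FtMT-Adip, 114.9 and 120.3 in WT, above background on 1 array), and the dimmest probe inside it was one of Fdps (mean signal 127). The efflux gene Abca1 read 113.8 and 102.2 in FtMT-Adip, against 111.2 and 106.8 in WT, above background on 0 arrays. For Fdft1 and Abca1 a difference was therefore not detectable.

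Several genes of synthesis and its control, Nsdhl and Insig1 among them, were lower in FtMT-Adip than in WT. The cholesterol-handling genes Npc1, Soat1 and Abcg1 were higher. Of the 21 tested synthesis and SREBP genes, 4 were called lower (19%) and 0 higher in limma at an adjusted p under 0.05, against 4.28% of all tested genes called lower. Of the 7 tested efflux genes, 3 were called higher (42.9%) and 0 lower, against 3.56% of all tested genes called higher. At an unadjusted p under 0.05 there were 9 of 21 synthesis and SREBP genes and 4 of 7 efflux genes, in either direction, against 3214 of all 14635 tested genes (22%). The fitted log2 change (FtMT-Adip minus WT) was below 0 for 21 of 21 synthesis and SREBP genes, with a median of -0.30, and above 0 for 7 of 7 efflux genes, with a median of 0.58. These counts were 17 of 21 and 6 of 7 in the authors' normalized values, and 6 of 7 efflux genes under median scaling and cyclic loess. They leave out a brighter Srebf2 probe under another name, whose change was 0.38 (adjusted p = 0.294). Across all 14635 tested genes the median was 0.01, and 47.4% of the changes were below 0. On the normalized log2 scale the arrays of the groups did not overlap for 19 of the 21 synthesis and SREBP genes, all lower. The same held for 5 of the 7 efflux genes, all higher. Of all tested genes, 24.9% and 26.9% separated in those directions. On the deposited signal the counts were 15 of 21 and 4 of 7. The share of all tested genes was not computed on that scale. With values centred per gene, the median over the synthesis and SREBP genes was -0.20 and -0.12 log2 units in FtMT-Adip 1 and 2, against 0.10 and 0.21 in WT 1 and 2. The same median over the efflux genes was 0.37 and 0.12 in FtMT-Adip 1 and 2, against -0.17 and -0.30 in WT 1 and 2. The number of synthesis and SREBP genes called lower was 1 with FtMT-Adip 1 left out, 6 with FtMT-Adip 2 left out, 2 with WT 1 left out and 1 with WT 2 left out. It was 2 in the matrix that the authors normalized. The number of efflux genes called higher was 1 without FtMT-Adip 1. In the same arrays 13 of 15 macrophage markers were called higher and 8 of 15 adipocyte markers lower, against 3.56% and 4.28% of all tested genes. Of these 8, Fabp4 passed the filter only through WT, where it was higher. The part of the macrophage and adipocyte markers in both results was not tested. In whole tissue, fewer cells of a type and less RNA per cell cannot be told apart.

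**Figure D1:**
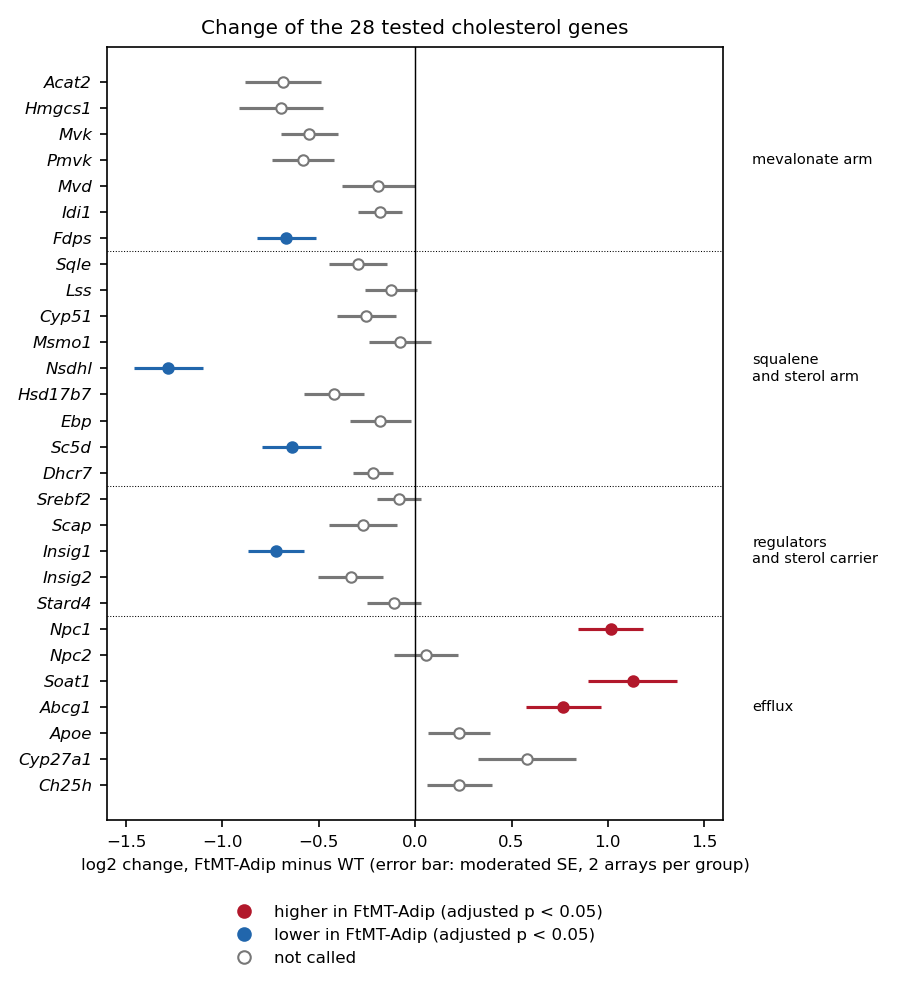
Log2 change, FtMT-Adip minus WT, of the 28 tested genes in pathway order (points; bars are moderated standard errors, 2 arrays per group). All 21 synthesis and SREBP genes lie left of 0, with 4 called lower, and all 7 efflux genes lie right of 0, with 3 called higher.

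In the mevalonate arm, 1 of 7 genes was called lower and the changes of the others ran from -0.70 to -0.18, with a median over the 7 of -0.58. Fdps, which encodes farnesyl diphosphate synthase (ILMN_1225730), had signals of 529 and 622.2 in FtMT-Adip, against 874 and 872.1 in WT. Both FtMT-Adip arrays lay below both WT arrays, a 1.59-fold fall (log2 change -0.67, SE 0.153, adjusted p = 0.0326). Its other tested probe (ILMN_1232741) was close to background, with 123.9 and 131.5 in FtMT-Adip against 124.3 and 127 in WT, and its change was 0.01. Hmgcs1 encodes the cytosolic HMG-CoA synthase, which acts early in the pathway. It gave 4380 and 6326 in FtMT-Adip against 7592 and 10559 in WT, which also did not overlap, and its change of -0.70 (SE 0.219) did not pass (adjusted p = 0.0994). The change of Hmgcs1 was -0.47 without FtMT-Adip 1, -0.93 without FtMT-Adip 2, -0.99 without WT 1 and -0.40 without WT 2. Hmgcs1 passed in 2 of the 9 other settings tried, which kept all 4 arrays, median scaling among them (-0.78, adjusted p = 0.0429). Acat2, the cytosolic thiolase gene at the start of the pathway, gave 263.3 and 361.5 in FtMT-Adip against 523 and 399.5 in WT (log2 change -0.69, SE 0.196, adjusted p = 0.0736). The groups did not overlap, but FtMT-Adip 2 lay near WT 2. The mevalonate kinase gene Mvk is represented by a probe with 143.6 and 172.5 in FtMT-Adip against 215.7 and 194.8 in WT (log2 change -0.55, adjusted p = 0.0623), whereas its dimmer probe (ILMN_1244594), with 122.4 and 131.8 in FtMT-Adip against 185.6 and 213.8 in WT, was called lower (log2 change -0.95, adjusted p = 0.00528). The next kinase gene, Pmvk, had 171.4 and 214.3 in FtMT-Adip against 256 and 259.7 in WT (log2 change -0.58, adjusted p = 0.0674). Without FtMT-Adip 2 the changes of Acat2, Mvk and Pmvk were -0.90, -0.70 and -0.75. Without FtMT-Adip 1 they were -0.48, -0.40 and -0.41. Acat2, Mvk and Pmvk passed in 0 of the same 9 settings that kept all 4 arrays. The decarboxylase gene Mvd (-0.19) and the isomerase gene Idi1 (-0.18), whose signals reached 226.2 and 141.8 at most, had the smallest changes of the arm. Fdps was not called when any 1 of the 4 arrays was left out (log2 change -0.73 to -0.61, adjusted p 0.0536 to 0.182), nor when all probes were tested without a filter.

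From squalene to cholesterol, 2 of the 9 tested genes were called lower, and the median change was -0.25. Nsdhl, whose product helps to remove methyl groups from sterols made from lanosterol (ILMN_2594525), fell most among the 28 tested members. It gave 159.1 and 187.2 in FtMT-Adip, against 315.6 and 381.9 in WT. Both FtMT-Adip arrays were thus far below both WT arrays, and the mean log2 level was 6.96 ± 0.17 in FtMT-Adip and 8.24 ± 0.28 in WT (SD, n = 2 each). The fall was 2.43-fold (log2 change -1.28, SE 0.179, adjusted p = 0.00422), the 118th largest fall of the 14635 tested genes. All 4 tested probes of Nsdhl were called lower, with log2 changes between -1.35 and -0.62. The smallest of these changes belonged to the dimmest probe, with 127.5 and 147.9 in FtMT-Adip against 174.9 and 191.7 in WT. Nsdhl stayed called without any 1 array (log2 change -1.48 to -1.08, adjusted p at most 0.0177) and in all 9 other settings tried.

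Sc5d, the sterol desaturase gene of the late pathway (ILMN_1225039), read 154.9 and 187.4 in FtMT-Adip, against 238.7 and 231.9 in WT, with no overlap. The fall was 1.56-fold, with a log2 change of -0.64 (SE 0.152, adjusted p = 0.0367). It was not called with FtMT-Adip 1 or either WT array left out (log2 change -0.79 to -0.49 for the 4 omissions), nor in the authors' normalized values (-0.40). Hsd17b7, which encodes a sterol reductase acting beside NSDHL, read 391.6 and 478.8 in FtMT-Adip against 563.5 and 541.8 in WT (log2 change -0.42, adjusted p = 0.154). The squalene epoxidase gene Sqle, often regarded as a control point of the pathway, had 275.4 and 325.6 in FtMT-Adip against 363.6 and 336.1 in WT (log2 change -0.30, adjusted p = 0.307), and its dimmer tested probe had a change of -0.15. The lanosterol demethylase gene Cyp51 stood at -0.25, the final reductase gene Dhcr7 at -0.22, the isomerase gene Ebp at -0.18, the lanosterol synthase gene Lss at -0.13 and the methylsterol oxidase gene Msmo1 at -0.08, none of them called. For Msmo1 the arrays of the groups overlapped. In the authors' normalized values Lss (0.14) and Ebp (0.25) had the opposite sign.

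Among the genes that control the pathway, the sensor gene Insig1 was lower and the others were not called. INSIG1 holds the SCAP and SREBP complex in the endoplasmic reticulum, and its gene is itself a target of SREBPs. Insig1 (ILMN_2895388) read 239.1 and 252.3 in FtMT-Adip, against 367.2 and 366.7 in WT, so the replicates were close and the groups far apart. It fell 1.65-fold (log2 change -0.72, SE 0.145, adjusted p = 0.0196). Its other tested probes were both called lower, without overlap of the arrays. The first had 204.2 and 195.7 in FtMT-Adip against 368 and 344.2 in WT (log2 change -1.04, adjusted p = 0.00432). The other had 139.7 and 157.7 in FtMT-Adip against 221.7 and 217.6 in WT (log2 change -0.80, adjusted p = 0.00962). The brightest probe lost its call without any 1 array, although its change stayed between -0.76 and -0.68 (adjusted p 0.0534 to 0.0964), and it was not called in the authors' normalized values (-0.64). Insig2, the gene of the related sensor, had 566.1 and 591.7 in FtMT-Adip against 822.4 and 601.5 in WT by its brightest probe (log2 change -0.34, adjusted p = 0.302) and -0.61 by its other tested probe (adjusted p = 0.0768). Whether Insig1 and Insig2 differ in their change was not tested. The escort gene Scap (-0.27) and the sterol carrier gene Stard4 (-0.11), which moves cholesterol between membranes, were not called. Srebf2, which encodes the SREBP most tied to cholesterol synthesis, was dim on all arrays (147.1 and 151.6 in FtMT-Adip, 158.4 and 149.8 in WT, log2 change -0.08, adjusted p = 0.744). A brighter probe for the same gene, listed under SREBP2 and so no member by the rule, had the opposite sign (352.7 and 320.2 in FtMT-Adip, 240.3 and 292.6 in WT, log2 change 0.38, adjusted p = 0.294). The direction of Srebf2 is therefore not settled by these probes.

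**Figure D2:**
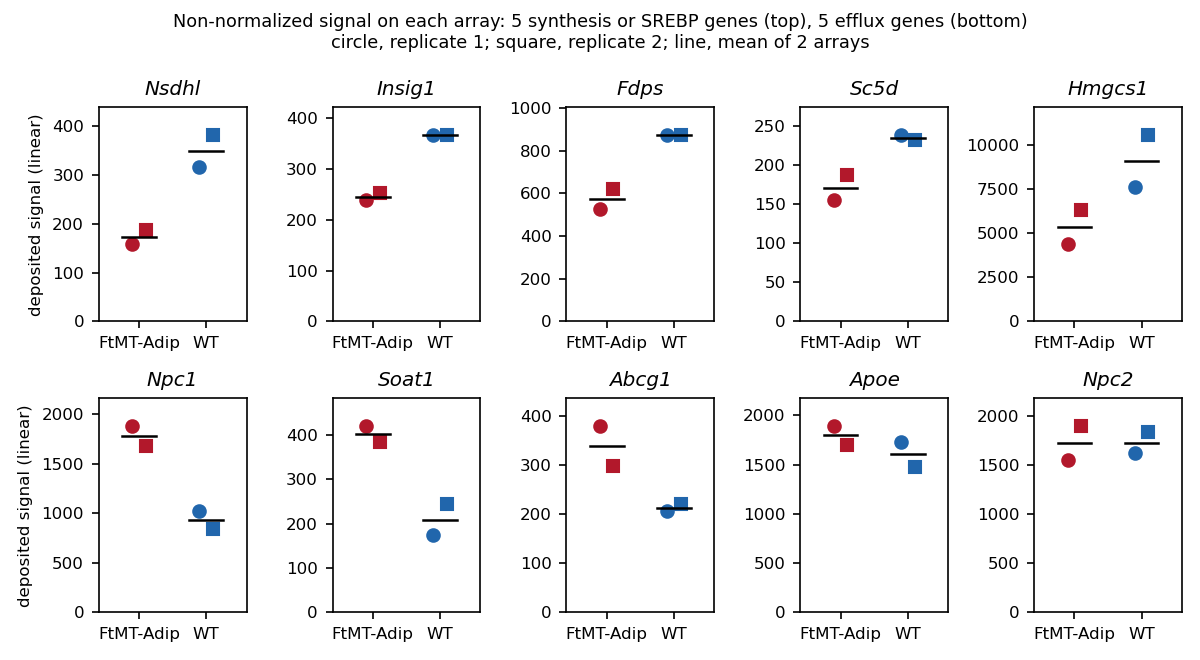
Deposited non-normalized signal (linear scale from 0) on each array for 5 synthesis or SREBP genes (top) and 5 efflux genes (bottom), FtMT-Adip left and WT right; lines are means of 2 arrays. For Nsdhl, Insig1, Fdps, Sc5d and Hmgcs1 both FtMT-Adip arrays lie below both WT arrays, for Npc1, Soat1 and Abcg1 both lie above, and for Apoe and Npc2 the signals overlap.

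Promoters of 3 synthesis or SREBP genes called lower, of Hmgcs1 and of the raised gene Soat1 are shown because SREBPs act at such sites together with the factor NF-Y, which binds CCAAT boxes. RefSeq promoters (GRCm38.p6) were matched for 25 of the 31 members, and the 250 bases before the annotated start were searched on both strands for TCACNCCAC, a form of the sterol response element, and for CCAAT, motifs that do not overlap in the sequences printed. Fdps, Abcg1 and Npc1 are not printed. Capitals mark the matches, and a CCAAT box on the other strand reads ATTGG. The sequences run 5′ to 3′ along each gene.
Nsdhl promoter, chrX:72918271-72918520, plus strand: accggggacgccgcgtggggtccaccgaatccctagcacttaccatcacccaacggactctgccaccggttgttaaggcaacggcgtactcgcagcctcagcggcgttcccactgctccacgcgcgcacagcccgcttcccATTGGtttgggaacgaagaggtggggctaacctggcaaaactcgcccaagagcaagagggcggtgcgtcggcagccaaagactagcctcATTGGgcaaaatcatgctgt
Insig1 promoter, chr5:28071162-28071411, plus strand: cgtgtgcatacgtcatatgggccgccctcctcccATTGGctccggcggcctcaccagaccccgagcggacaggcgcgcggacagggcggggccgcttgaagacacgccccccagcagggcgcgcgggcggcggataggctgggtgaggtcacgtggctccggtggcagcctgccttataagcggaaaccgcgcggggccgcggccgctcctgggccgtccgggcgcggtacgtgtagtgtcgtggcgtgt
Sc5d promoter, chr9:42264301-42264550, minus strand: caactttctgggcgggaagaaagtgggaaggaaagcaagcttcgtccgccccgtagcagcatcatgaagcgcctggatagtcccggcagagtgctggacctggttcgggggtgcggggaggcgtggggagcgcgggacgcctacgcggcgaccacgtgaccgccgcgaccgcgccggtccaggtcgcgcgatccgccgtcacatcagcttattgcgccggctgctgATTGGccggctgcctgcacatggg
Hmgcs1 promoter, chr13:119690101-119690350, plus strand: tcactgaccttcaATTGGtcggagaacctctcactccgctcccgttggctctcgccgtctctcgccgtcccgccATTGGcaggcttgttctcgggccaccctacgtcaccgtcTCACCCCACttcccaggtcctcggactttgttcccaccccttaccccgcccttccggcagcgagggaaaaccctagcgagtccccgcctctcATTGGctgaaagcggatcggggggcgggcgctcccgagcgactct
Soat1 promoter, chr1:156474329-156474578, minus strand: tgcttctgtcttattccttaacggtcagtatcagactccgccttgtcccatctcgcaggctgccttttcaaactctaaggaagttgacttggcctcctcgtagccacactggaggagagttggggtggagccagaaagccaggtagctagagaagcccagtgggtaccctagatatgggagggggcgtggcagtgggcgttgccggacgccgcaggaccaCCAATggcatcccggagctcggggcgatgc
A CCAAT box was present for 17 of 19 matched synthesis and SREBP genes (89.5%) and for 3 of 6 matched efflux genes (50%), against 37.5% of all 27025 genes with a promoter in the table. Hmgcs1 held 3 such boxes and Nsdhl 2, while Insig1, Sc5d and Soat1 held 1 each. The sterol response element as searched was found in Hmgcs1 (bases -137 to -129 from the start) and in no other matched member, against 1.22% of all genes. These are matches of letters in a short window and not measured binding, and other forms of the element were not searched.

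Of the 7 tested genes that move, store or export cholesterol, Npc1, Soat1 and Abcg1 were higher in FtMT-Adip, and the other 4 were not called. Npc1, whose product exports cholesterol from late endosomes and lysosomes (ILMN_2427454), read 1880 and 1681 in FtMT-Adip, against 1028 and 836.2 in WT. The FtMT-Adip arrays were both well above the WT arrays, and the mean log2 level was 10.79 ± 0.21 in FtMT-Adip and 9.77 ± 0.13 in WT (SD, n = 2 each). This is a 2.02-fold rise (log2 change 1.01, SE 0.168, adjusted p = 0.00873), which stayed called without any 1 array (0.87 to 1.16, adjusted p at most 0.0483) and in all 9 other settings tried. The other 4 probes of Npc1 were above background on 0 arrays. Npc2, the soluble lysosomal partner that hands cholesterol to NPC1, was well above background but overlapped between groups, with 1551 and 1898 in FtMT-Adip against 1624 and 1832 in WT (log2 change 0.06, SE 0.165, adjusted p = 0.893). Its sign turned under median scaling (-0.02), cyclic loess (-0.0039) and without WT 1 (-0.08) or FtMT-Adip 2 (-0.04).

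Soat1, which encodes the enzyme that esterifies cholesterol for storage (ILMN_1248510), read 420 and 383.7 in FtMT-Adip, against 173.3 and 244.7 in WT. The groups did not overlap, and the WT arrays were the more spread pair. The rise of Soat1 was 2.19-fold, with a log2 change of 1.13 (SE 0.230, adjusted p = 0.0207). A second member probe (ILMN_1221350) was near background, with 132.7 and 130.2 in FtMT-Adip against 125 and 123.9 in WT (log2 change 0.10, adjusted p = 0.602). A probe listed as 8430426K15RIK, a synonym of Soat1 in RefSeq and no member by the rule, was called higher (459 and 307.7 in FtMT-Adip, 173.1 and 207.9 in WT, log2 change 1.17, adjusted p = 0.0249). The call of Soat1 ended without FtMT-Adip 1 (0.99, adjusted p = 0.0852) and without WT 1 (0.77, adjusted p = 0.0728). Abcg1, the transporter that passes cholesterol to high-density lipoprotein (ILMN_2441335), read 378.9 and 297.2 in FtMT-Adip, against 205.6 and 220.1 in WT. All FtMT-Adip values were above all WT values, with the larger spread in FtMT-Adip, a 1.70-fold rise (log2 change 0.77, SE 0.194, adjusted p = 0.0473). This call lay at the threshold, and it ended with FtMT-Adip 1 or either WT array left out (0.51 to 1.03 for the 4 omissions), without background correction and without a variance trend.

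The remaining efflux genes were not called. Apoe, the gene of an apolipoprotein that carries cholesterol out of macrophages and other cells, had 1892 and 1700 in FtMT-Adip against 1727 and 1480 in WT (log2 change 0.23, SE 0.162, adjusted p = 0.484), and its change was -0.08 in the authors' normalized values. Cyp27a1, a sterol hydroxylase gene whose product makes an oxysterol, had 1156 and 1131 in FtMT-Adip against 1096 and 571.5 in WT by its brightest probe (log2 change 0.58, SE 0.253, adjusted p = 0.229). WT 2 was the low array for all 3 Cyp27a1 probes, and WT 1 lay near or above the FtMT-Adip arrays. The change was 0.15 without WT 2 and 1.01 without WT 1, where it passed (adjusted p = 0.0251). Ch25h, which encodes another oxysterol-forming hydroxylase, had 181.3 and 175.1 in FtMT-Adip against 178.3 and 139.1 in WT (log2 change 0.23, adjusted p = 0.498), and without WT 2 its change was -0.0042. WT 2 thus had the lowest signal of the 4 arrays for Apoe, Cyp27a1 and Ch25h.

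**Figure D3:**
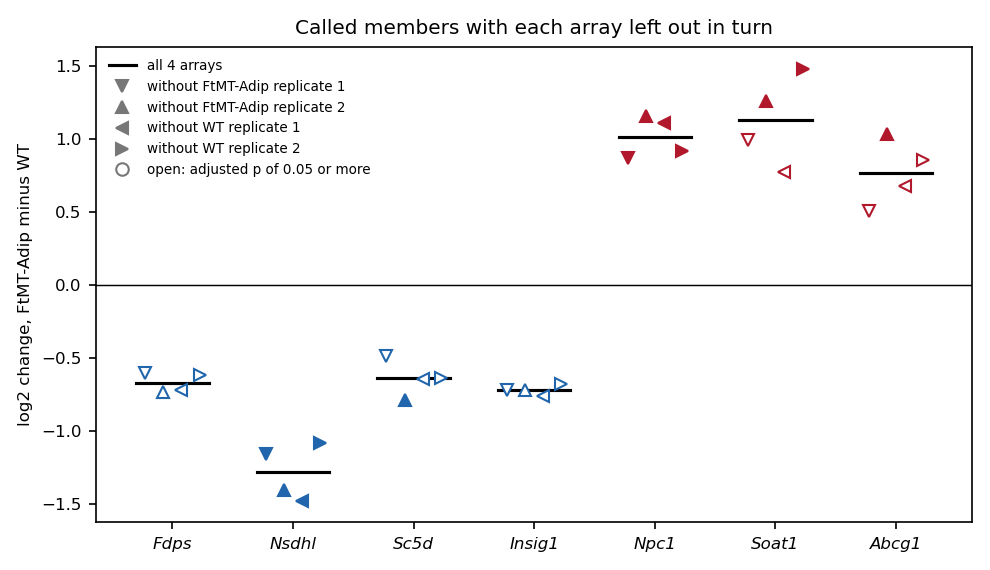
Log2 change, FtMT-Adip minus WT, of the 7 called members with all 4 arrays (lines) and with each array left out in turn (symbols; open where the adjusted p was 0.05 or more). Nsdhl and Npc1 stay called in all 4 cases, while Fdps and Insig1 keep nearly the same change and lose the call in all 4.

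Several members were measured by more than 1 tested probe. Of 30 tested synthesis and SREBP probes, 29 had a negative change and 10 were called lower, against 4.15% of all tested probes, and the exception was the dim Fdps probe at 0.01. All 10 tested efflux probes had a positive change, and 3 were called higher, against 3.27% of all tested probes. Probes of the same gene share its transcripts, so these are not independent observations. The size differed between probes of a gene, from -1.04 to -0.72 for Insig1 and from 0.21 to 0.58 for Cyp27a1.

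**Figure D4:**
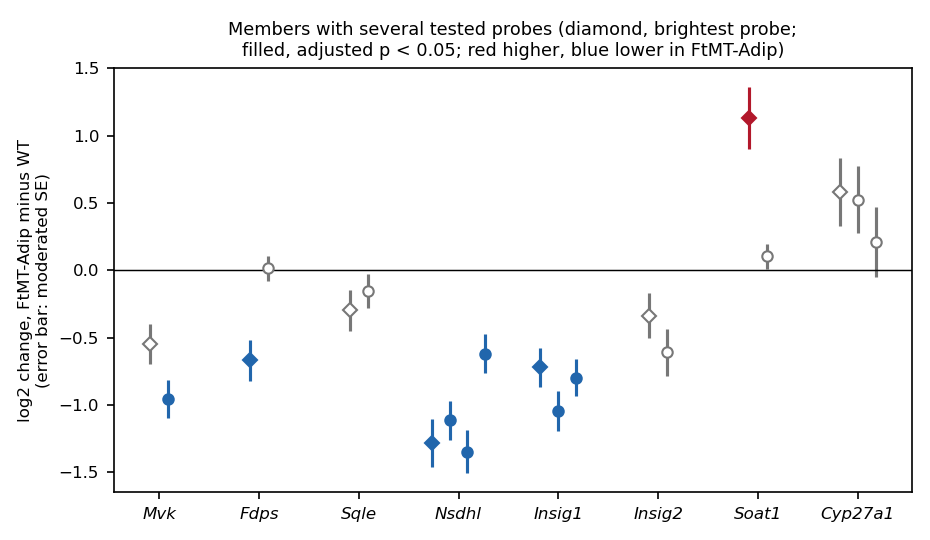
Log2 change, FtMT-Adip minus WT, of every tested probe for the 8 members with more than 1 (bars are moderated standard errors). All 4 Nsdhl probes and all 3 Insig1 probes are called lower, while Mvk, Fdps and Soat1 each have a called and an uncalled probe.

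Of 34 other genes of cholesterol handling, listed apart from the members, 32 had a probe and 30 were tested. Of these 30, 2 were called higher (6.67%) and 3 lower (10%), against 3.56% and 4.28% of all tested genes. The median change was -0.07, with 17 changes below 0 and 13 above. Of the 17, Acat1 (-0.18, not called) was above background on 0 FtMT-Adip arrays and 2 WT arrays. It passed the filter only through WT, where it was higher. The phospholipid transfer protein gene Pltp read 5177 and 4609 in FtMT-Adip against 2976 and 2869 in WT (log2 change 0.81, SE 0.152, adjusted p = 0.0139, 1 of 2 tested probes called). Stard5, a cytosolic cholesterol-binding protein gene, read 574 and 597.4 in FtMT-Adip against 403.6 and 354.3 in WT (log2 change 0.66, SE 0.151, adjusted p = 0.032). Both were higher on both arrays. The lipoprotein receptor gene Vldlr read 838.5 and 1082 in FtMT-Adip against 1724 and 2052 in WT (log2 change -0.97, SE 0.182, adjusted p = 0.0145, 2 of 4 tested probes called). The apolipoprotein gene Apoc1, a neighbour of Apoe in the same gene cluster, was lower (1012 and 1428 in FtMT-Adip, 2569 and 1967 in WT, log2 change -0.89, adjusted p = 0.023). Cav1, which encodes the coat protein of caveolae, was lower as well (6298 and 9010 in FtMT-Adip, 13824 and 13383 in WT, log2 change -0.77, adjusted p = 0.0243). The liver X receptor genes Nr1h3 (0.22) and Nr1h2 (-0.10), whose products raise Abca1 and Abcg1 when oxysterols bind, were not called, nor was Srebf1, the SREBP gene tied to fatty acid synthesis (-0.15). Without FtMT-Adip 1, 1 of these genes was called higher and 0 lower, and in the authors' normalized values 0 were higher and 1 lower. The call of Stard5 ended without any 1 array (0.60 to 0.73), that of Vldlr without WT 2 or FtMT-Adip 1, that of Apoc1 without WT 1 or FtMT-Adip 1, that of Cav1 with FtMT-Adip 1 or either WT array left out, and that of Pltp without FtMT-Adip 1.

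Marker genes of several cell types also differed between the groups. Among all tested genes, 3.56% were called higher and 4.28% lower. Of 15 macrophage markers, all tested, 13 were called higher and 0 lower (median log2 change 1.03), and their summed signal was 48979 and 41161 in FtMT-Adip 1 and 2, against 16310 and 21331 in WT 1 and 2. Gpnmb (2.72), Trem2 (2.29), Cd68 (1.83) and Adgre1 (1.65) rose most. Of 15 adipocyte markers, all tested, 8 were called lower and 0 higher (median -0.75), led by Cfd (-3.04), Lep (-1.51), Cidec (-1.41) and Adipoq (-1.35), with a summed signal of 52712 and 79291 in FtMT-Adip, against 156985 and 130204 in WT. Of these 8, Fabp4 was above background on 2 WT arrays and on 0 FtMT-Adip arrays. Fabp4 thus passed the filter only through the group where it was higher, while the other 7 were above background on all 4 arrays. Of the 15 adipocyte markers, 13 had a change below 0 and 2 above 0. The changes above 0 were those of Cidea (1.24) and Pparg (0.07), neither called and both with overlapping arrays. Of 10 endothelial markers 4 were called lower (median -0.68), with sums of 6757 and 8848 in FtMT-Adip against 12099 and 14084 in WT. Of 4 erythroid markers, 3 were tested and all 3 were called lower. Skeletal muscle markers, of which 7 of 8 were tested and 1 was called higher, summed to 8747 in FtMT-Adip 1 and 2322 in FtMT-Adip 2, against 1396.5 and 1623 in WT, and Myh4 was below background. The macrophage marker Itgam and the muscle marker Actn3 were above background on 0 WT arrays and passed the filter only through FtMT-Adip, and neither was called. Fibroblast and preadipocyte markers had 1 of 10 called higher, lymphocyte markers 0 of 9 called, neutrophil and mast cell markers 2 of 7 higher and 2 lower, and keratinocyte and epithelial markers 0 of 3, with Krt5, Krt14, Krt18, Epcam and Csn3 below background. The part of these shifts in the lower synthesis and SREBP genes and in the higher Npc1, Soat1 and Abcg1 was not tested.

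**Figure D5:**
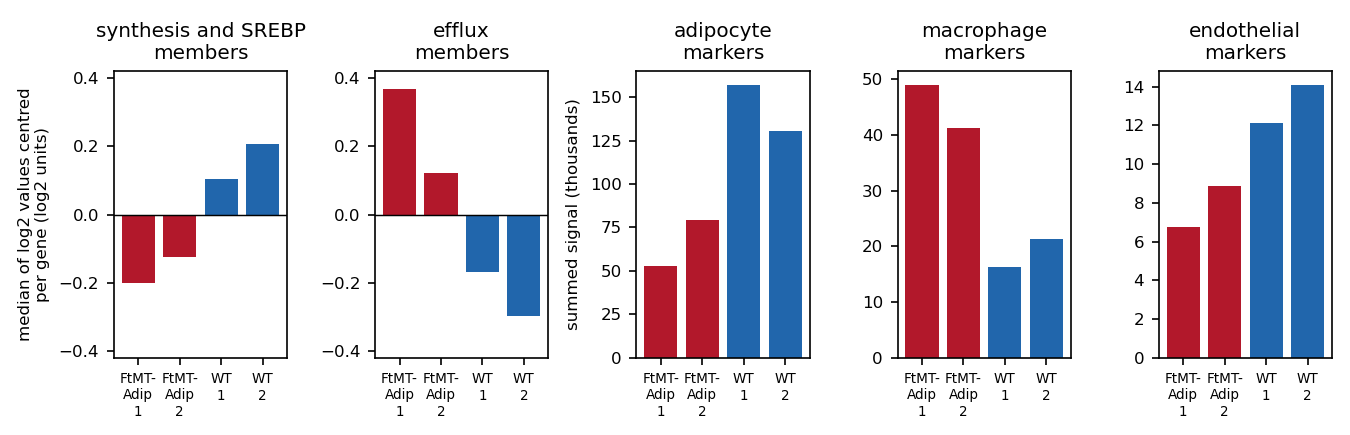
Median over synthesis and SREBP genes and over efflux genes of log2 values centred per gene, and summed linear signal of adipocyte, macrophage and endothelial markers, for each of the 4 arrays (FtMT-Adip red, WT blue). The FtMT-Adip and WT arrays do not overlap in any panel. Within WT, the array with the higher adipocyte sum, WT 1 (156985), has the lower synthesis median (0.10, against 0.21 in WT 2). Within FtMT-Adip, array 2 has the higher adipocyte sum (79291, against 52712) and the higher synthesis median (-0.12, against -0.20). Bright markers weigh most in the adipocyte sum, where Cfd read 29255 in WT 1 and 15125 in WT 2. Lep went the other way, with 21672 in WT 1 and 26618 in WT 2. A relation between adipocyte sum and synthesis median was not tested.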

How the data were processed

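Biotin-labelled total RNA was hybridised to Illumina BeadChips, per the labels' protocols. The deposited table titled non-normalized holds intensity, and its values (lowest 91.3 to 93.1 per array) are on a linear scale with background left in. A deposited normalized intensity table (medians 3.48 to 3.65) was made by a method that the sources used here do not give, and the series' value table is identical to it (largest difference 0). In these tables, 8 further columns of per-array log10 values were not used. Against the RefSeq gene table (GRCm38.p6), 22864 probe names were current symbols, 11915 were unique synonyms, 10475 kept the table's name, and 27 that had turned into dates were left unnamed.

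The non-normalized intensity was background-corrected with normexp (offset 50), quantile normalized and put on the log2 scale with limma 3.58.1 in R 4.3.3. Detection p-values were not among the columns used, so background was set from 1479 receptor probes. Fits used lmFit and eBayes with a variance trend over 20884 tested probes, with p-values for both directions adjusted by Benjamini-Hochberg across that set, and 683 were called higher and 867 lower. SE is the moderated standard error. The fit was tested on simulated data with independent normal noise at the fitted variances. Such data cannot show effects of a batch or of shared RNA. The number of arrays limits precision. No slide or scan date was known.

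The members and gene lists were chosen with earlier results of these data known. All members are named. Of the other listed genes, those called are named, up to 8, and of each marker list up to 4. The liver X receptor genes, Srebf1, Acat1, the markers Fabp4, Cidea, Pparg, Itgam and Actn3 and the probes under other names were added after their values were seen. Motif searches were also chosen with the values known.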

Additional observations from a re-analysis of the deposited data

How the results depend on the processing

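The alternatives were no background correction, a normexp offset of 16, median scaling, cyclic loess, no filter on dim probes, a filter on all 4 arrays, no variance trend, the authors' normalized matrix (log2 with a pseudocount of 1), the replicate number as a block, the mean of all tested probes of a gene, and leaving out each array in turn, where the lone array of a group is assumed to vary like the others. In the authors' normalized matrix the probes called were 323 higher and 376 lower, 2 synthesis and SREBP genes were called lower, and the medians were -0.40 for synthesis and SREBP genes and 0.40 for efflux genes. There Idi1 (0.060), Lss (0.14), Srebf2 (0.053), Ebp (0.25) and Apoe (-0.076) took the opposite sign. Npc2 did so under median scaling (-0.018) and cyclic loess (-0.0039). With the mean of all tested probes the efflux median was 0.44. Over the left-out arrays, the probes called ranged from 314 to 774 higher and from 340 to 847 lower, the synthesis and SREBP genes called lower from 1 to 6, the efflux genes called higher from 1 to 3, the synthesis and SREBP median from -0.44 to -0.31 and the efflux median from 0.20 to 0.68. The changes that crossed 0 were those of Msmo1 (-0.19 to 0.033), Mvd (-0.47 to 0.085), Npc2 (-0.084 to 0.20) and Ch25h (-0.0042 to 0.46). The causes were not tested. With a replicate block, 529 probes were higher and 703 lower, 3 synthesis and SREBP genes were lower (Hmgcs1, Nsdhl and Insig1) and 2 efflux genes higher (Npc1 and Soat1). The labels do not say that a replicate number marks a shared litter or day. Over the tested probes, FtMT-Adip 1 minus 2 correlated with WT 1 minus 2 at a Pearson r of -0.079. Dim probes limit several members, since 11 of their 51 probes were not tested.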
